A study of Homo sapiens with 36 samples.

Results

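The BCL2 family decides at the outer mitochondrial membrane whether a cell enters apoptosis, and 10 of its genes are described here in a human T cell line in which the NF-kB gene RELA was activated. The 10 were chosen by symbol: BCL2, BCL2L1, BCL2A1 and MCL1 of the anti-apoptotic branch, BCL2L11, BBC3, PMAIP1 and BID of the BH3-only branch, and the effectors BAX and BAK1. Each symbol matched 1 identifier, so these are 10 of the 74628 genes in the deposited count table. All 10 were counted, 9 passed the filter on low counts that precedes the tests, and BCL2A1 did not.

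The cells were Jurkat, a T-lymphocyte leukaemia line, and all of them carried dCas9-VP64, a Cas9 that cannot cut DNA joined to a transcriptional activator. A guide RNA brings that protein to a promoter, an approach named CRISPR activation (CRISPRa). Lentiviral vectors delivered either a guide to RELA (sgRELA) or a guide labelled non-targeting (sgControl), puromycin selection lasted 3 days, and RNA was taken on day 5, 6 or 7 after transduction. All groups share the genotype label dCas9-VP64 (CRISPRa); mCherry+, each guide label names 1 guide, and untransduced cells were not analysed here. Transduction was done in 3 replicates per guide, which gave 6 groups of 3 RNA samples. Whether the samples of one number on different days came from 1 culture is not given in the sources used here.

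RamDA-seq, a random-displacement method that copies total RNA along whole transcripts, was run on 100 pg of RNA, with 2 libraries for each of the 18 RNA samples. The counts of the 2 libraries were added, so n is 3 RNA samples per group throughout. The 36 libraries held 7586205 to 16124473 counts and the 18 sums 18769530 to 29503934, with 31086 to 32809 genes detected per sum. RELA stood at 20.2 to 39.3 CPM in the 9 sgControl samples and at 120 to 318 CPM in the 9 sgRELA samples, where CPM is the count relative to the library total, scaled with TMM factors. Its level in sgRELA was 8.83-fold higher on day 5, 8.41-fold on day 6 and 5.14-fold on day 7 (edgeR adjusted p = 1.08e-15, 2.49e-15 and 7.89e-13). From day 5 to day 7 RELA fell in sgRELA to 0.433 of its level (log2 fold change -1.21 ± 0.13, SE; edgeR adjusted p = 6.43e-08). In sgControl RELA fell to 0.744 of its level over the same days (-0.43 ± 0.13, edgeR adjusted p = 0.0319). The 9 T cell markers were all detected in each group, summing to 1836 to 2743 CPM per sample, while the 5 epithelial markers summed to at most 1.69 CPM and EPCAM was at 0 in every group.

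In this family, anti-apoptotic proteins hold the effectors in check by binding them and by binding BH3-only proteins. BH3-only proteins sense damage, loss of growth signals or stress, occupy the groove of the anti-apoptotic proteins and in some cases switch on the effectors directly. Active BAX and BAK1 form pores through which cytochrome c leaves the mitochondrion. T cells are known to depend on this balance both for survival in culture and for the removal of spent clones, and NF-kB is known to act on BCL2A1 and BCL2L1.

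Positions that follow come from GENCODE v29 (GRCh38), and the submitters' processing notes name the same build. BCL2 (ENSG00000171791, chr18:63123346-63320128, minus strand), MCL1 (ENSG00000143384, chr1:150574551-150579738, minus), BCL2L1 (ENSG00000171552, chr20:31664452-31723989, minus) and BCL2A1 (ENSG00000140379, chr15:79960889-79971446, minus) are the anti-apoptotic members. BCL2L11 encodes BIM (ENSG00000153094, chr2:111119378-111168447, plus strand), PMAIP1 encodes NOXA (ENSG00000141682, chr18:59899948-59904306, plus), BBC3 encodes PUMA (ENSG00000105327, chr19:47220822-47232766, minus) and BID (ENSG00000015475, chr22:17734138-17774770, minus) encodes the BH3-only protein that caspase-8 cleaves. BAX lies at chr19:48954815-48961798 on the plus strand (ENSG00000087088) and BAK1 at chr6:33572547-33580293 on the minus strand (ENSG00000030110). All 10 are protein-coding. Several give rise to splice forms with opposite activity, among them BCL2L1 and MCL1, and counts per gene do not separate these.

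Between genes, levels were compared as CPM per kilobase of exon. MCL1, a short-lived guardian that binds BIM and NOXA, stood highest at 38.1 ± 4.44 CPM per kb (SD over the 18 RNA samples), and lay above BID in 18 of 18 samples. BID followed at 13.3 ± 2.68 CPM per kb. It exceeded PMAIP1, at 8.90 ± 3.27 CPM per kb, in 16 of 18 samples.

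Below these, PMAIP1, BAK1 (7.96 ± 1.10 CPM per kb) and BCL2L11 (7.66 ± 1.98) were not separated beyond their spread. PMAIP1 exceeded BAK1 in 10 of 18 samples and BAK1 exceeded BCL2L11 in 11. BCL2L11 lay above BCL2 (6.70 ± 1.19 CPM per kb) in 14 of 18 samples, and BCL2 above BCL2L1 (5.82 ± 0.982) in 15. The effector BAX, at 3.36 ± 0.913 CPM per kb, was under BCL2L1 in 17 of 18 samples. With the length of the longest transcript in place of all exons, BCL2 moved from rank 6 to rank 3, and the ranks of MCL1, BID, BCL2L11, BCL2L1, BAX, BBC3 and BCL2A1 stayed as they were.

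BBC3 and BCL2A1 were near the limit of detection. BBC3 had 129 counts over all 36 libraries, 0 to 16 per RNA sample, with 2 samples at 0. BCL2A1 had 27 counts in all, and 15 of them came from 1 sample, sgRELA day 6 replicate 1. BCL2A1 was at 0 in 13 of 18 RNA samples and 31 of 36 libraries. A count of 0 allows up to 3 counts, which is 0.103 to 0.157 CPM at these depths, and like every counting limit here it covers counting error only. The 5 samples with any BCL2A1 count held 1 and 4 counts in sgControl and 15, 1 and 6 in sgRELA, so none of the 6 groups had it in all 3 samples.

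**Figure D1:**
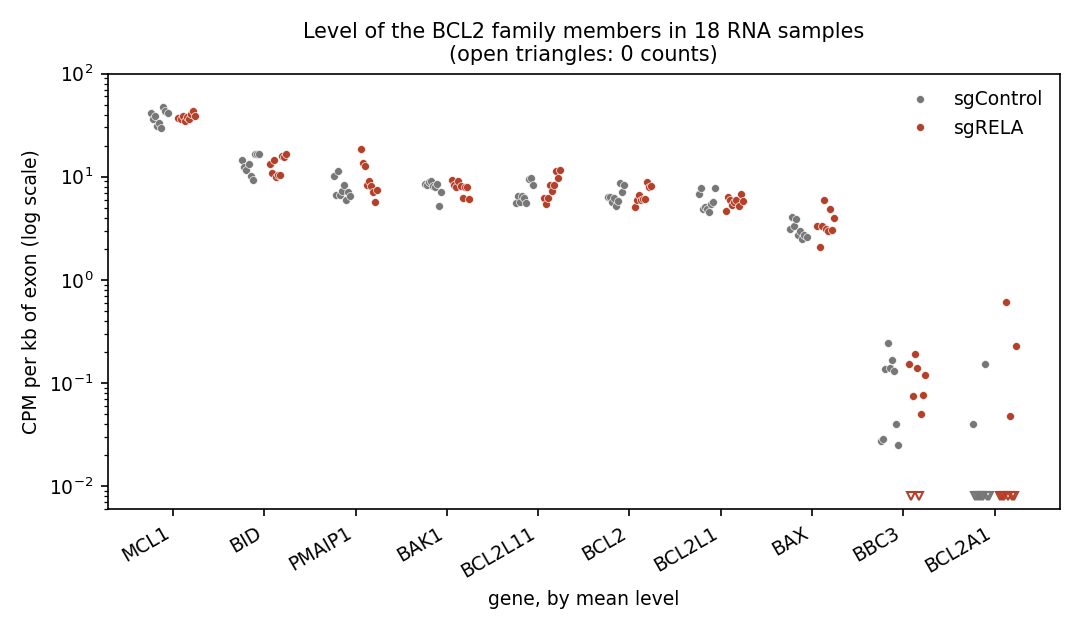
Level of each gene in CPM per kilobase of exon (log axis) in the 9 sgControl and 9 sgRELA RNA samples, one point per sample in the order of day, with samples at 0 counts as open triangles at the lower edge. MCL1 lies at 29.6 to 47.3 in all samples, the next 7 genes lie between 2.07 and 18.5, and BBC3 and BCL2A1 do not exceed 0.604.

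Added up per sample, the 10 genes reached 74.4 to 104.5 CPM per kb. The anti-apoptotic genes made up 47.8% to 58.9% of that sum, the BH3-only genes 28.9% to 39.2% and the effectors 8.15% to 17%. MCL1 alone was 37.8% to 45.2%. The sum was lowest in sgControl on day 6 (78.3 ± 3.92, SD, n = 3) and highest on day 7, at 100.2 ± 3.74 in sgControl and 100.4 ± 1.79 in sgRELA. These are shares of RNA, and protein was not measured.

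The first comparison asked whether activation of RELA changed the family on any of the 3 days. No member was called, that is, none had an adjusted p under 0.05 over all 27553 genes tested. On day 5 0 of 9 tested members were called where 0.138% of all genes were, on day 6 0 of 9 where 0.214% were, and on day 7 0 of 9 where 0.0907% were. At an unadjusted p under 0.05, 1 member passed on day 5, 2 on day 6 and 1 on day 7, and DESeq2 called 0 on each day. Over the whole design, counts added across days gave 0 of 9 members called, against 0.363% of 28888 genes, with 2 members under an unadjusted 0.05 and 0 called by DESeq2.

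With BBC3 set aside for its few counts, PMAIP1 on day 5 had the log2 fold change farthest from 0 between the guides. On day 5 its level was 22.5, 14.9 and 25.1 CPM in sgControl and 41.3, 30.1 and 28.5 CPM in sgRELA. All 3 sgRELA samples lay above all 3 sgControl samples on that day. The log2 fold change was 0.68 ± 0.19 (SE; 95% interval 0.28 to 1.07), with an edgeR adjusted p of 0.43. Over the 15 alternative settings it was 0.46 to 0.90, with adjusted p from 0.119 to 0.869.

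On day 6 PMAIP1 stood at 14.7, 16.2 and 18.7 CPM in sgControl and at 18.6, 20.1 and 18.1 in sgRELA, and on day 7 at 13.3, 15.9 and 14.6 against 16, 12.8 and 16.6. The groups overlapped on both days. Summed over days, PMAIP1 was at 16.8, 15.6 and 19.3 CPM in sgControl and 25.3, 21.1 and 21.8 CPM in sgRELA, with no overlap. That log2 fold change was 0.40 ± 0.11 (95% interval 0.17 to 0.63; edgeR adjusted p = 0.217), and it was called only when no filter on low counts was applied (adjusted p = 0.0321, with 0.0321 to 0.836 over 16 settings).

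BCL2L11, which encodes the BH3-only protein BIM that all anti-apoptotic members bind, overlapped between the guides on day 5. It then stood at 37.4, 43.2 and 38.0 CPM in sgControl and at 41.4, 36.5 and 41.9 in sgRELA (log2 fold change 0.02, 95% interval -0.23 to 0.27, edgeR adjusted p = 0.998). On day 6 the sgControl samples were at 43.0, 41.5 and 37.1 CPM and the sgRELA samples at 55.6, 48.1 and 54.8. On day 7 they were at 62.7, 64.5 and 55.5 CPM against 74.9, 64.7 and 76.9. The groups did not overlap on either day, although by a narrow margin on day 7. The share of all genes without overlap was not counted, so a lack of overlap, here and for other members, is a description only. The log2 fold change was 0.38 ± 0.12 on day 6 (edgeR adjusted p = 0.438) and 0.25 ± 0.12 on day 7 (edgeR adjusted p = 1.00), and neither was called.

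Of the anti-apoptotic members BCL2, MCL1 and BCL2L1 were tested between the guides, and none was called. Across days BCL2 had a log2 fold change of 0.02 (95% interval -0.11 to 0.15), MCL1 one of 0.01 (-0.10 to 0.11) and BCL2L1 one of -0.04 (-0.26 to 0.19). These intervals leave room for a rise of up to about 0.15, 0.11 and 0.19 log2 units. On day 6 MCL1 was at 136, 145 and 129 CPM in sgControl and 152, 167 and 159 in sgRELA, with no overlap and a log2 fold change of 0.22 ± 0.09 (edgeR adjusted p = 0.671). On the same day BCL2L1 was at 17.01, 16.03 and 15.2 CPM in sgControl and 17.6, 18.9 and 19.5 in sgRELA, again with no overlap (0.22 ± 0.20, edgeR adjusted p = 0.971).

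Among the effectors, BAX was at 6.42, 7.02 and 6.67 CPM in sgControl and 12.5, 7.80 and 10.2 in sgRELA on day 7. The sgRELA samples lay above the sgControl samples, with a log2 fold change of 0.60 ± 0.28 and an edgeR adjusted p of 1.00. On day 5 the value for BAX was -0.28 ± 0.28. BAK1 and BID had 95% intervals across days of -0.25 to 0.25 and -0.20 to 0.11. On day 7 BID was at 73.7, 74.5 and 74.5 CPM in sgControl and 70.8, 69.7 and 73.0 in sgRELA. There the sgRELA samples lay below the sgControl samples (log2 fold change -0.06 ± 0.13), and BID was not called. BBC3, at 0 to 16 counts per sample, had an interval of -1.63 to 1.26 across days, which spans 2-fold changes both ways.

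The guide effect was then compared between days in an interaction test. No member was called (0 of 9, against 0.00363% of all genes, which is 1 gene), 1 member had an unadjusted p under 0.05, and DESeq2 called 0. The edgeR adjusted p was 1.00 for each of the 9 members tested. The values of PMAIP1 on day 5 and of BCL2L11 on days 6 and 7 are therefore not shown to differ from those on the other days. They are not shown to be equal either. RELA itself, 8.83-fold higher on day 5 and 5.14-fold on day 7, was not called in this test (edgeR unadjusted p = 0.000298, adjusted p = 0.686).

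**Figure D2:**
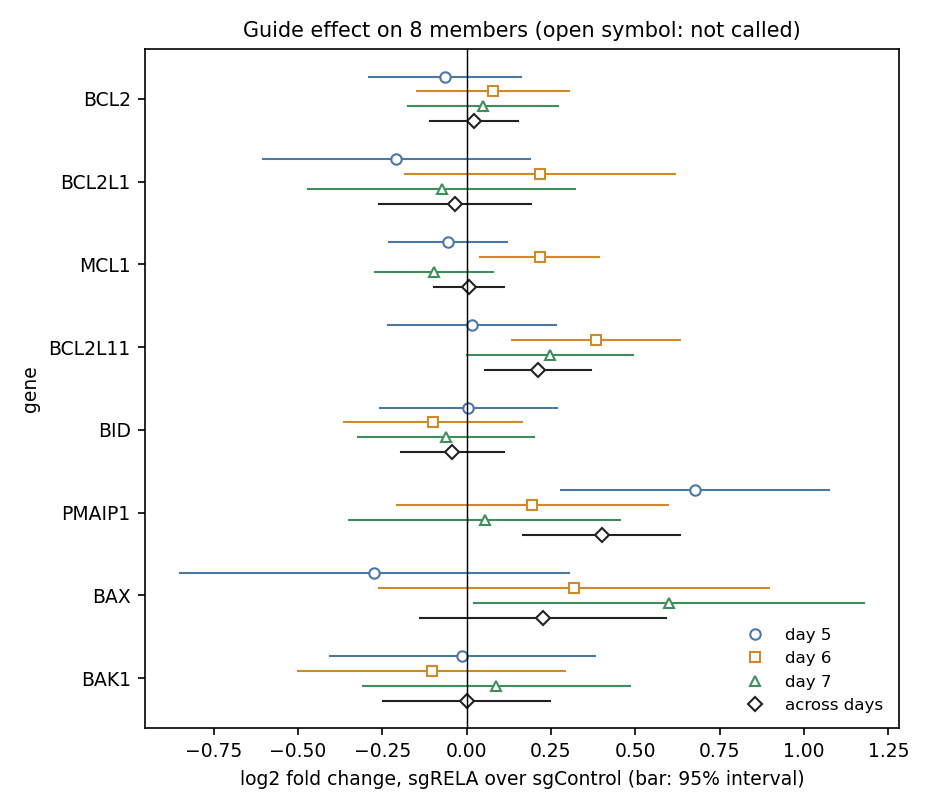
Log2 fold change of sgRELA over sgControl with its 95% interval for 8 members on day 5, 6 and 7 and across days, with open symbols for genes that were not called. No symbol is filled; PMAIP1 on day 5 lies farthest from 0 at 0.68, and BBC3 is left out because its intervals span more than 5 log2 units on each day.

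More members were called between days than between guides. Over the 6 comparisons of days within a guide, 15 values were called: BCL2L11 in 5 comparisons, BCL2 in 4, and BID, MCL1 and PMAIP1 in 2 each. BCL2, BCL2L11 and BID were higher on day 7 than on day 6 in both guides, and BCL2 and BCL2L11 were also higher on day 7 than on day 5 in both. PMAIP1 fell in sgRELA from day 5. BCL2L1, BAX, BAK1 and BBC3 were called in none of the 6. The comparisons of one guide share samples, since day 7 enters both day 7 against 5 and day 7 against 6.

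Between day 5 and day 6, 1 of 9 members was called in sgControl, where 8.87% of all genes were called (3.29% higher and 5.58% lower), and 2 of 9 in sgRELA, where 6.91% were (2.57% higher and 4.34% lower). Over all genes the split of calls was 907 higher and 1538 lower in sgControl and 708 and 1196 in sgRELA; with upper quartile scaling it was 1167 and 1172, and 850 and 941. Between day 5 and day 7, 2 of 9 members were called in sgControl against 13% of all genes (6.65% higher and 6.36% lower), and 3 of 9 in sgRELA against 12.4% (6.35% higher and 6.06% lower). Between day 6 and day 7, 4 of 9 members were called in sgControl, all higher, against 14.6% of all genes (8.25% higher and 6.31% lower). In sgRELA 3 of 9 were called, all higher, against 12.2% (7.21% higher and 5.02% lower). Among genes averaging 50 counts or more, a level that every member except BBC3 and BCL2A1 reached, 24.4% were called between day 6 and day 7 in sgControl and 20.7% in sgRELA.

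BCL2, the founding anti-apoptotic gene, stood at 74.5, 75.3 and 66.7 CPM on day 5, 73.2, 61.9 and 67.9 on day 6 and 102, 83.8 and 98.0 on day 7 in sgControl. In sgRELA it stood at 60.2, 69.3 and 77.5 CPM on day 5, 70.7, 72.2 and 71.2 on day 6 and 104, 93.9 and 95.5 on day 7. All 6 day 7 samples exceeded all 12 earlier ones. The rise from day 6 to day 7 was 1.40-fold in sgControl (log2 0.49 ± 0.11, edgeR adjusted p = 0.00203) and 1.37-fold in sgRELA (0.46 ± 0.11, adjusted p = 0.00442). From day 5 to day 7 it was 1.31-fold in sgControl (0.39 ± 0.11, adjusted p = 0.0155) and 1.42-fold in sgRELA (0.50 ± 0.11, adjusted p = 0.00183). The sgControl call from day 5 to day 7 was lost without day 5 replicate 3 (adjusted p = 0.0906), without day 7 replicate 1 (0.0965) and without day 7 replicate 3 (0.07), within a range of 0.00238 to 0.512 over 15 settings. With any one RNA sample left out the log2 value was 0.33 to 0.47.

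MCL1 was lowest on day 6 in sgControl. Its level in that guide was 180, 159 and 169 CPM on day 5, 136, 145 and 129 on day 6 and 207, 189 and 179 on day 7. In sgRELA it was 160, 158 and 171 CPM on day 5, 152, 167 and 159 on day 6 and 178, 191 and 169 on day 7. In sgControl the 3 day 6 samples lay below the other 6, while in sgRELA day 6 overlapped day 5.

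MCL1 fell from day 5 to day 6 in sgControl to 0.810 of its level (log2 fold change -0.30 ± 0.09, edgeR adjusted p = 0.0218), and the rise from day 6 to day 7 was 1.40-fold (0.49 ± 0.09, adjusted p = 0.00011). The fall lost its call under 8 of 15 settings. It was not called without day 5 replicate 1 (adjusted p = 0.103), day 5 replicate 3 (0.0628) or day 6 replicate 3 (0.0941), and the range over settings was 0.00335 to 0.476. In sgRELA the values were -0.03 and 0.17, neither called, and the interaction of guide and day was not called for MCL1 (adjusted p = 1.00).

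BCL2L1, which encodes the long and short forms of BCL-X, was not called in any comparison. It ranged from 15.2 to 25.9 CPM in sgControl and from 15.3 to 22.7 CPM in sgRELA. The value farthest from 0 was -0.43 ± 0.20 from day 5 to day 6 in sgControl (95% interval -0.83 to -0.03, edgeR adjusted p = 0.2). GENCODE places the antisense gene ABALON on the opposite strand, where it shares 1424 bases of exon with BCL2L1. ABALON had 64 counts beside 8168 for BCL2L1, and reads in the shared stretch cannot be told apart.

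**Figure D3:**
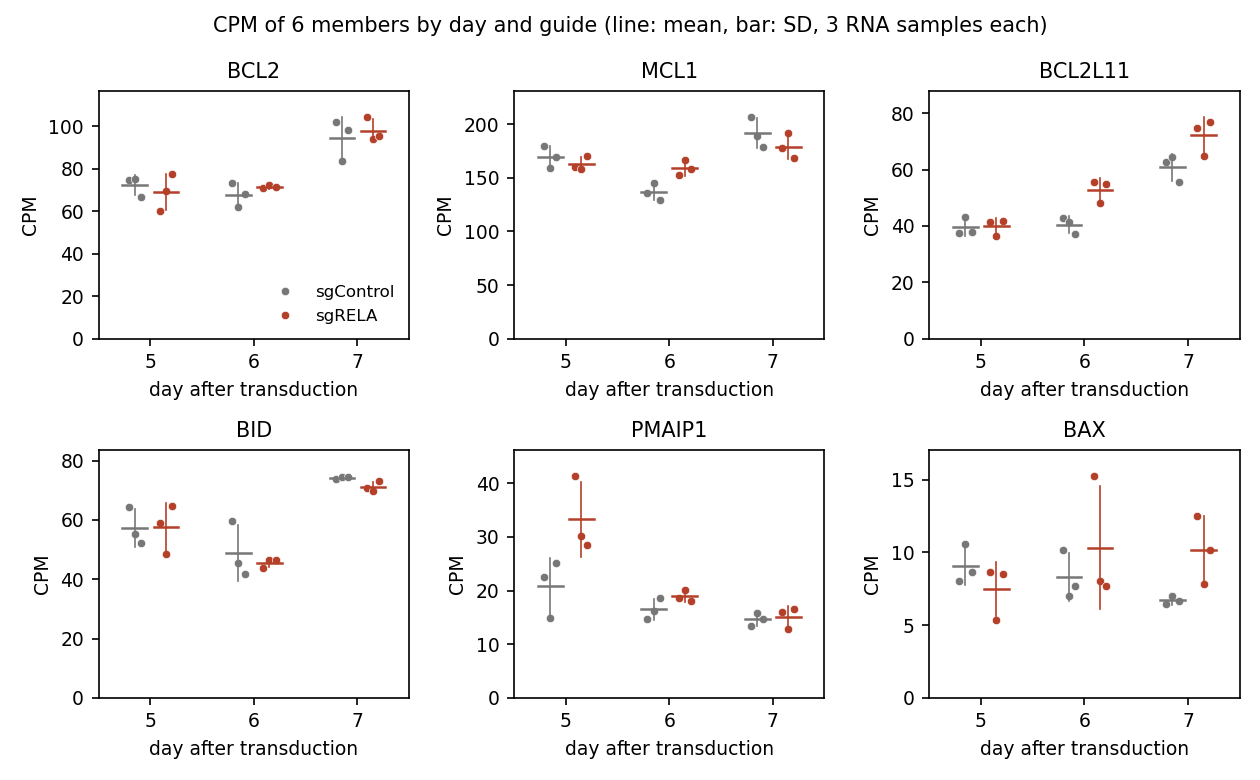
CPM of BCL2, MCL1, BCL2L11, BID, PMAIP1 and BAX on day 5, 6 and 7 in sgControl and sgRELA, with a point for each of 3 RNA samples, a line at the mean and a bar of 1 SD, on axes that start at 0. BCL2 and BCL2L11 are highest on day 7 in both guides, BID is lowest on day 6 by its mean, and PMAIP1 is highest on day 5 in sgRELA at 28.5 to 41.3 CPM.

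BCL2L11 had the most calls of the family. It is known as a target of forkhead (FOXO) factors, which are held out of the nucleus while growth signals are strong. Its sgControl values, given above, overlapped on days 5 and 6 and lay higher on day 7, while in sgRELA the 3 days formed 3 groups without overlap (36.5 to 41.9, 48.1 to 55.6 and 64.7 to 76.9 CPM). From day 5 to day 7 the rise was 1.54-fold in sgControl (log2 0.62 ± 0.12, edgeR adjusted p = 0.000539) and 1.81-fold in sgRELA (0.85 ± 0.12, adjusted p = 7.6e-06). From day 6 to day 7 it was 1.5-fold in sgControl (0.59 ± 0.12, adjusted p = 0.000747) and 1.37-fold in sgRELA (0.45 ± 0.12, adjusted p = 0.0107).

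The step of BCL2L11 from day 5 to day 6 was 1.32-fold in sgRELA (0.40 ± 0.12, edgeR adjusted p = 0.0395) and 1.03-fold in sgControl (0.04 ± 0.12, adjusted p = 0.922). The sgRELA call was lost without any one of day 5 replicates 1, 2 and 3 (adjusted p = 0.076, 0.191 and 0.071), and without day 6 replicate 1 (0.157) or 3 (0.128). Its range over 15 settings was 0.00497 to 0.366. The call from day 6 to day 7 in sgRELA was lost without day 6 replicate 2 (0.0784), day 7 replicate 1 (0.0524) or day 7 replicate 3 (0.0619), within 0.000997 to 0.27. From day 5 to day 7 the sgRELA call held under all 15 settings, with adjusted p from 3.61e-12 to 0.00442. GENCODE places the long noncoding gene MIR4435-2HG on the opposite strand, where 727 bases of exon are shared with BCL2L11. That gene had 16265 counts beside 21613 for BCL2L11, and since the strand setting of the counting is not given, reads in the shared stretch cannot be told apart.

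BID is cut by caspase-8 and so links death receptors to the mitochondrion. In sgControl it was at 64.3, 55.3 and 52.1 CPM on day 5, 59.6, 45.3 and 41.8 on day 6 and 73.7, 74.5 and 74.5 on day 7. In sgRELA it was at 58.9, 48.6 and 64.8 CPM on day 5, 43.9, 46.4 and 46.6 on day 6 and 70.8, 69.7 and 73.0 on day 7. All 6 day 7 samples lay above all 12 earlier ones.

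BID rose 1.52-fold from day 6 to day 7 in sgControl (log2 0.60 ± 0.13, edgeR adjusted p = 0.00102) and 1.56-fold in sgRELA (0.64 ± 0.13, adjusted p = 0.000625). From day 5 to day 7 the values were 0.38 ± 0.13 in sgControl (adjusted p = 0.0501) and 0.31 ± 0.13 in sgRELA (adjusted p = 0.122), neither under 0.05. The sgControl value sat at the threshold: it was called under 8 of 15 settings, among them without day 5 replicate 1 (adjusted p = 0.0308) and in DESeq2 (0.0248), with a range of 0.00331 to 0.744.

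PMAIP1 went the other way. NOXA binds MCL1 above all, and PMAIP1 is a known target of p53 and of the stress factor ATF4. Its values by sample, given above, were highest on day 5 in sgRELA, where all 3 samples exceeded the other 6 of that guide. In sgRELA its log2 fold change against day 5 was -0.82 ± 0.20 on day 6, a fall to 0.568 of the level (edgeR adjusted p = 0.00734), and -1.14 ± 0.20 on day 7, a fall to 0.455 (adjusted p = 0.000124). In sgControl the values were -0.34 ± 0.20 (adjusted p = 0.356) and -0.51 ± 0.20 (adjusted p = 0.0873).

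The sgRELA fall of PMAIP1 to day 7 was called under all 15 settings, with adjusted p from 1.97e-07 to 0.0374. The fall to day 6 lost its call without day 5 replicate 1, the highest sample (-0.64, adjusted p = 0.0812, range 0.000527 to 0.295). In sgControl the change to day 7 became a call without day 5 replicate 2 (-0.70, adjusted p = 0.0193, range 0.0193 to 0.781), the lowest of its group. The interaction of guide and day was not called for PMAIP1 (adjusted p = 1.00), so the steeper value in sgRELA is not shown to differ from that in sgControl.

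BAX and BAK1 were called in no comparison of days. BAX ranged from 5.36 to 15.2 CPM and BAK1 from 11.6 to 20.5 CPM over the 18 samples. For BAX the values from day 5 to day 7 were -0.44 ± 0.28 in sgControl and 0.44 ± 0.28 in sgRELA, with edgeR adjusted p of 0.374 and 0.383. For BAK1 they were -0.31 ± 0.19 and -0.21 ± 0.19 (adjusted p = 0.359 and 0.597).

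**Figure D4:**
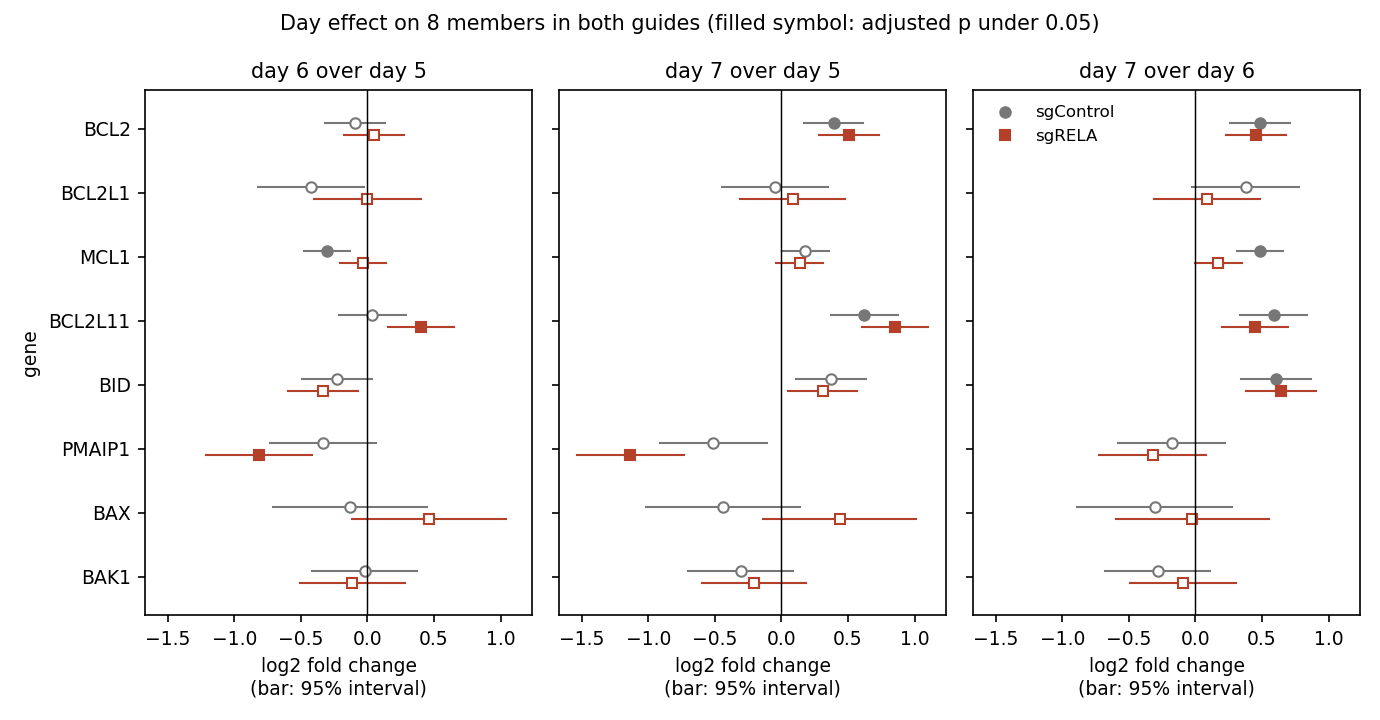
Log2 fold change between days with its 95% interval for 8 members in sgControl and sgRELA, with filled symbols where the adjusted p is under 0.05. From day 6 to day 7 BCL2, BCL2L11 and BID are filled in both guides and MCL1 in sgControl, and PMAIP1 in sgRELA lies at -0.82 and -1.14 against day 5.

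Ratios within the family followed these changes and are given as descriptions. The ratio of PMAIP1 to MCL1 per kb was 0.401 ± 0.0918 in sgRELA on day 5 (SD, n = 3) and 0.240 ± 0.0540 in sgControl. On day 7 it was 0.167 ± 0.0319 and 0.15 ± 0.0206. The ratio of BCL2L11 to BCL2 was 1.03 ± 0.158 in sgRELA on day 5 and 1.30 ± 0.105 on day 7, and in sgControl 0.969 ± 0.0717 and 1.15 ± 0.188. Effectors made up 14.9% ± 0.940 of the family sum on day 6 and 9.49% ± 1.2 on day 7 in sgControl, without overlap, and 13.6% ± 3.09 and 11.2% ± 1.19 in sgRELA, with overlap.

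The promoters of BCL2L11 and PMAIP1 are shown because these genes had the largest called changes, each in its own direction. Both are RefSeq sequence of GRCh38.p14, plus strand, 5′ to 3′. BCL2L11 is given for chr2:111120664-111120913 and PMAIP1 for chr18:59899746-59899947. The BCL2L11 stretch ends just before its RefSeq start and lies inside the GENCODE gene, which begins at 111119378. The PMAIP1 stretch ends just before the GENCODE start at 59899948 and stops short of the RefSeq start. Capitals mark GTAAACA, a motif of forkhead factors, in BCL2L11, and the reverse complement of TGACGT, the core of sites for CREB and ATF factors, in PMAIP1.
BCL2L11: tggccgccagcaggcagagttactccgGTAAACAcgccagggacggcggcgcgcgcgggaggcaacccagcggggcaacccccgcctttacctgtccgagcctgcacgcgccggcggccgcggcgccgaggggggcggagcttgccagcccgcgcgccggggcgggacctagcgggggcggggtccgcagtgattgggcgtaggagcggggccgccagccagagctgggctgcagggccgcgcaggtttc
PMAIP1: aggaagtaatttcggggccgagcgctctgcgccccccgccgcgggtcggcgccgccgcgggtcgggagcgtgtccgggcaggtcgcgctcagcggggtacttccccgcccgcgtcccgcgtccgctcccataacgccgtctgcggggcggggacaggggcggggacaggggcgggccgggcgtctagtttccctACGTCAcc

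The motif lies 217 to 223 bases before the RefSeq start of BCL2L11 and 51 to 56 bases before that of PMAIP1. Both strands were searched in windows from 250 bases before to 50 bases after each start, which 9 of the 10 members had, with 14 windows between them. GTAAACA was in 3.42% of all 35116 RefSeq windows and among the members only in BCL2L11, and TGACGT was in 7.98% and only in PMAIP1. TGATGNAA, the form of site that ATF4 shares with C/EBP partners, was in 3.62% and in BCL2A1 only, and the p53 half-site was in 6.63% and in BAK1 only. The NF-kB consensus was in 11.3% of all windows and in none of the 14. A match or its absence in such a window says nothing of binding, and the motifs were chosen with the changes known.

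Factors known to act on the family were measured in the same samples. Of 12 such genes, 1 was called by guide on each day, the NF-kB subunit gene RELB. Over all genes 0.138%, 0.214% and 0.0907% were called by guide on days 5, 6 and 7. RELB was higher in sgRELA by 2.28 ± 0.39 log2 units on day 5, 2.04 ± 0.39 on day 6 and 1.93 ± 0.39 on day 7 (edgeR adjusted p = 0.00274, 0.00788 and 0.0405), from a level of 0.928 to 1.55 CPM in sgControl to 3.55 to 7.10 CPM by group means. The list's median was 0.18, 0.20 and 0.10 on the 3 days, beside -0.002, -0.003 and 0.0 over all genes.

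By day, 2 of the 12 were called from day 5 to 6 in sgControl and 3 in sgRELA, 6 and 5 from day 5 to 7, and 4 in each guide from day 6 to 7. Over all genes the shares called were 8.87% and 6.91%, 13% and 12.4%, and 14.6% and 12.2% in the same order. ATF4, the factor of the integrated stress response, fell from 313 ± 14 CPM on day 5 and 270 ± 6.27 on day 6 to 137 ± 1.62 on day 7 in sgControl (-1.19 ± 0.08 against day 5, edgeR adjusted p = 8.5e-12), and likewise in sgRELA (-1.10 ± 0.08, adjusted p = 3.46e-11). DDIT3, which encodes CHOP, fell from day 5 to day 7 as well (-3.44 ± 0.43 in sgControl and -3.03 ± 0.40 in sgRELA). Its means on the 3 days were 6.83, 11.8 and 0.617 CPM in sgControl and 10.3, 10.3 and 1.26 in sgRELA, and neither guide had a call from day 5 to day 6. MYC fell on day 6 (-1.03 ± 0.12 in sgControl, -0.64 ± 0.11 in sgRELA) and rose by 1.64 ± 0.12 and 1.36 ± 0.12 from there to day 7. The DDIT3 and ATF4 levels were lowest on day 7, the day on which PMAIP1 had its lowest mean in both guides. In sgRELA, however, PMAIP1 had its called step from day 5 to day 6 (-0.82 ± 0.20, edgeR adjusted p = 0.00734). From day 6 to day 7 PMAIP1 was not called there (-0.32 ± 0.20, edgeR adjusted p = 0.372). ATF4 in sgRELA had means of 296, 280 and 138 CPM on days 5, 6 and 7. Any link was not tested.

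Among 13 other genes of the family, all tested, 0 were called by guide on any day, across days or in the interaction, with 1, 3, 1, 1 and 1 under an unadjusted 0.05 and 0 by DESeq2. By day, 3 or 4 of the 13 were called in each comparison, where 6.91% to 14.6% of all genes were called. Among genes averaging 50 counts or more the share was 11.9% to 24.4%. BNIP3 and BNIP3L, which encode mitochondrial receptors for mitophagy that low oxygen is known to induce, fell from day 5 to day 7 in both guides. BNIP3 went from 191 ± 18.4 CPM on day 5 to 50.1 ± 1.69 on day 7 in sgControl (-1.94 ± 0.17, edgeR adjusted p = 9.5e-10) and from 176 ± 12.2 to 48.7 ± 2.48 in sgRELA (-1.85 ± 0.17, adjusted p = 2.02e-09). For BNIP3L the values were -1.09 ± 0.09 in sgControl and -1.17 ± 0.09 in sgRELA.

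BMF, a BH3-only gene, rose and fell within the 3 days. It went from 25.2 ± 4.56 to 57.4 ± 5.92 CPM between day 5 and day 6 in sgControl (1.184 ± 0.17, edgeR adjusted p = 1.83e-05) and back to 31.4 ± 2.90 on day 7 (-0.87 ± 0.17, adjusted p = 0.000335). The sgRELA means were 28.3, 59.5 and 31.2 CPM, with calls in the same directions. BCL2L13 fell by 0.55 ± 0.11 from day 5 to day 7 in sgControl (adjusted p = 0.000962). BCL2L15, BCL2L12 and HRK, named here after their values were seen, made up the other calls of this list.

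Downstream of the pore, 17 of 19 genes listed for the caspase cascade were tested, a list that also holds VDAC and BIRC genes. By guide 0 were called on any day, with 0, 1 and 1 under an unadjusted 0.05 and 0 by DESeq2. From day 6 to day 7, 5 were called higher and 1 lower in sgControl, and 4 higher and 1 lower in sgRELA, with list medians of 0.18 and 0.19 beside -0.07 and -0.06 over all genes. These are 6 and 5 of 17 called, where 14.6% and 12.2% of all genes were, and 24.4% and 20.7% of genes averaging 50 counts or more. VDAC1, an outer membrane channel, rose by 1.06 ± 0.09 in sgControl (edgeR adjusted p = 7.96e-10) and 0.90 ± 0.09 in sgRELA (1.86e-08). CYCS, which encodes cytochrome c, rose by 0.98 ± 0.12 and 0.64 ± 0.12, and BIRC5, which encodes survivin and is known to peak in dividing cells, by 1.15 ± 0.12 and 1.33 ± 0.12. VDAC3 rose by 0.77 ± 0.10 and 0.59 ± 0.10. The gene called lower in sgRELA was CASP9, the only caspase gene called there, named after its values were seen. In sgControl CASP9 and AIFM1 were called as well, in opposite directions.

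In the death receptor pathway, upstream of BID, 11 of 12 genes were tested. By guide 0 were called on any day, with 2, 3 and 1 under an unadjusted 0.05 and 0 by DESeq2. By day, 1 or 2 of the 11 were called in each comparison, where 6.91% to 14.6% of all genes were called. Among genes averaging 50 counts or more the share was 11.9% to 24.4%. CASP8, whose protease cleaves BID, was higher on day 6 than on day 5 by 0.41 ± 0.10 in sgControl (edgeR adjusted p = 0.00871) and 0.34 ± 0.10 in sgRELA (0.0341). The TRAIL receptor gene TNFRSF10B fell from day 5 to day 7, with -0.55 ± 0.13 in sgControl and -0.61 ± 0.13 in sgRELA (adjusted p = 0.0049 and 0.00186). RIPK1 rose by 0.41 ± 0.11 from day 5 to day 6 in sgRELA (adjusted p = 0.0182). The related gene TNFRSF10A was called from day 5 to day 7 in sgRELA on 64 counts in all against 0, where 0 allows up to 3 per sample.

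MCL1 protein is short-lived, and 4 genes of its turnover were looked at. By guide 0 of 4 were called on any day, with 0, 1 and 0 under an unadjusted 0.05 and 0 by DESeq2. FBXW7, a ubiquitin ligase component, fell from day 5 to day 7 (-0.41 ± 0.11 in sgControl and -0.57 ± 0.11 in sgRELA; edgeR adjusted p = 0.0121 and 0.000498). HUWE1, the ligase also named MULE, rose by 0.29 ± 0.06 from day 6 to day 7 in sgControl (adjusted p = 0.00162).

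Other measures moved with the days or the guides. The share of counts from mitochondrially encoded genes was 7.41% to 7.85% in the 6 day 7 samples and 8.33% to 9.87% in the 6 day 6 samples. The summed T cell markers were 2474 to 2743 CPM on day 7 and 1836 to 2346 on days 5 and 6. Of the 9, 4 were called higher and CD3E lower from day 6 to day 7 in sgControl, and 3 higher and CD5 lower in sgRELA. In that step 14.6% of all genes were called in sgControl and 12.2% in sgRELA. The shares were 24.4% and 20.7% among genes averaging 50 counts or more. CD28 was higher in sgRELA than in sgControl on day 6 (0.60 ± 0.11, edgeR adjusted p = 0.00657) and across days (0.31 ± 0.06, adjusted p = 0.0177). The 5 myeloid markers summed to 19.9 to 24.8 CPM on day 7 and 28.2 to 42.4 on the earlier days, with CD68 called lower on day 7. The 5 B cell markers summed to 16.7 to 26.2 CPM in sgControl and 48.5 to 62.8 in sgRELA, through CD79A, which was 1.5 ± 0.08 log2 units higher across days (edgeR adjusted p = 3.88e-11). MS4A1 was at 0 in 3 of the 6 groups. The part of these in the values of the BCL2 family was not tested, and in bulk RNA fewer cells of a kind and less RNA per cell cannot be told apart.

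The 2 libraries of one RNA sample measure how far a single preparation from 100 pg can be trusted for each gene. Their median absolute log2 difference was 0.11 for MCL1, 0.15 for BCL2L11, 0.17 for BID, 0.19 for BCL2, 0.21 for BCL2L1, 0.23 for PMAIP1, 0.26 for BAX and 0.42 for BAK1. The largest single gap was 1.80 log2 units, for PMAIP1. For BCL2L11, BID and BCL2 the median difference was smaller than the called rise from day 6 to day 7. Their largest gaps were 0.57, 0.55 and 0.57. The rises of BCL2 in both guides and of BCL2L11 in sgRELA lay below these gaps. Those of BID in both guides and of BCL2L11 in sgControl lay above. For BAK1 the median difference was larger than its value in any comparison. With only the first library of each sample, no member was called from day 6 to day 7 in sgRELA and 2 were in sgControl. With only the second library, 2 members were called in each guide. Fewer genes of any kind were called from single libraries: from day 6 to day 7 in sgControl and sgRELA, 1879 and 961 of 24177 with the first and 2628 and 2336 of 23893 with the second, beside 4012 and 3368 of 27553 with both.

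Some genes tracked the members over the 18 RNA samples. Among the 15514 genes averaging 50 counts or more, those with the highest Pearson correlation of log2(CPM + 1) were DDX56 (0.93) and ENSG00000309183 (0.92) for BCL2, HNRNPR (0.91) and RPF1 (0.91) for MCL1, and MSN (0.94) and MSI2 (0.93) for BCL2L11. For BID they were CDC45 (0.94) and SLC19A1 (0.93), and for PMAIP1 DCTN3 (0.88) and N4BP2L1 (0.86). Between members, BCL2 had a correlation of 0.80 with BCL2L11, 0.79 with BID and -0.61 with PMAIP1. The points share libraries, depth and day, so these numbers describe the 18 samples only.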

How the data were processed

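The authors deposited 1 table of raw, unnormalized counts per gene for the 36 libraries. The submitters' processing notes name cutadapt 1.18, STAR 2.7.9a and GRCh38; the counting tool, annotation release, strand setting and handling of reads with several matches are not given in the sources used here, and no molecular identifiers are named. Every column was assigned to a sample by the name that the labels give it. Of 74628 identifiers, 57693 matched a table of names.

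The counts of the 2 libraries of each RNA sample were added. The 18 sums entered 1 model of 6 group means in edgeR 4.0.16 (R 4.3.3): TMM scaling (factors 0.971 to 1.08), filterByExpr (minimum count 10), quasi-likelihood F tests, and p-values adjusted by Benjamini-Hochberg over all genes tested. Genes were called at an adjusted p under 0.05. Across days, counts were added over the 3 days for each guide and replicate number, and 3 sums were compared with 3. The interaction was an F test on 2 coefficients. SE is the log2 fold change over the square root of F, and 95% intervals use the matching t quantile. The procedure was tested on simulated data.

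Named were the 10 members and RELA, and up to 4 called genes of each other list by the smallest p. The 2 best-correlated genes of each called member were named too. Some other genes of the lists were named after their values were seen. Members, lists and motifs were chosen with earlier results of these data known. Alternatives were DESeq2 1.42.0, its size factors or upper quartile scaling in edgeR, no filter on low counts, mitochondrial genes left out, each library alone, 2 libraries with few detected genes left out, a replicate block, and each RNA sample left out in turn.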

Additional observations from a re-analysis of the deposited data

Results flagged for a closer look

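In groups of 6 libraries, the highest and the lowest value were searched for gaps to the nearest other library, relative to the range of the group. The search covered 48 groups of a gene and a condition, and chance gives such a gap in about 1 of 20. Since 2 libraries share each RNA sample, the 6 are not independent. A gap was found in 4 cases, each for the highest library. Library 1 of sgRELA day 5 replicate 1 held PMAIP1 at 50.03 CPM (618 counts), while the other 5 libraries held 26.3 to 32.3. That RNA sample is the highest of the group in which PMAIP1 exceeded the other days, and the fall to day 7 was called without it. BAX was at 14.4 CPM in library 1 of sgControl day 5 replicate 2 (others 6.48 to 9.32) and at 16.04 CPM in library 1 of sgControl day 6 replicate 1 (others 6.23 to 8.42). These are the 2 libraries that one alternative left out for their few detected genes. BCL2L1 was at 29.8 CPM in library 2 of sgControl day 7 replicate 3 (others 17.2 to 21.7). Neither BAX nor BCL2L1 was called in any comparison.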

How the results depend on the processing

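Of 225 alternative values of the 15 called day effects, 190 were still called and all 225 kept their sign; with the single-library sets aside, 177 of 195 were called. The number of members called from day 5 to day 6 in sgControl was 1. It was 0 with upper quartile scaling, no filter, library 1 only, library 2 only or the 2 libraries with few detected genes left out, and 0 to 1 with an RNA sample left out. From day 5 to day 7 in sgControl it was 2, against 0 with library 1 only, 4 with library 2 only, 4 without the 2 libraries and 1 to 3 with a sample left out. From day 6 to day 7 it was 4 in sgControl, against 2 with library 1 only and 2 with library 2 only (4 to 4 with a sample left out), and 3 in sgRELA, against 0 with library 1 only (2 to 3). From day 5 to day 6 in sgRELA it was 2, against 0 with library 1 only, 0 with library 2 only and 0 to 2 with a sample left out, and from day 5 to day 7 it was 3 (3 to 3). Across days between guides it was 0, and 1 without a filter (0 to 0). The single-library sets hold fewer counts; for the other settings the cause was not tested.

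The replicate block called 0 members between guides and 3 rather than 2 from day 5 to day 7 in sgControl (BID, adjusted p = 0.0418), and changed no other member's call. It moved calls over all genes from 38, 59 and 25 to 33, 57 and 21 between guides on days 5, 6 and 7, and from 105 to 124 across days. Same-numbered samples did not deviate together. The correlations of their deviations were -0.01 to 0.06 between guides on a day and -0.11 to 0.04 between days of a guide, none over 0.1. With 3 samples per group, this does not settle whether same-numbered samples shared a culture. DESeq2 called 72, 129 and 55 genes between guides, 242 across days and 14 in the interaction (1 in edgeR). At 129 and 27 counts in all, only large changes in BBC3 and BCL2A1 were detectable at this depth. BCL2A1 did not pass the filter, and its highest sample was at 0.658 CPM, in sgRELA on day 6.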
